A study of Xenopus tropicalis with 27 samples.

Results

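Axon guidance genes encode the cues that growing axons read and the receptors with which they read them. The genes described here are the 61 whose symbols name a semaphorin, plexin, neuropilin, ephrin, Eph receptor, slit, robo, netrin, dcc or unc5 family member and which were present in both deposited count tables of brain RNA from the frog Xenopus tropicalis. They were picked by symbol out of 16212 genes in a drug table and 16049 genes in a time course table. Low genes had been removed from both tables before deposit, and the gene families were chosen with earlier results of these data known. The 30 ligands comprised 16 semaphorins, 7 ephrins, 4 netrins and 3 slits. The 31 receptors comprised 11 Eph receptors, 9 plexins, 5 netrin receptors, 4 robos and 2 neuropilins.

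The drug table held tadpole brains at stage 46 that had been raised from stage 30 in 10 µM β-estradiol (an estrogen), in 5 µM cyclopamine (a steroidal alkaloid that inhibits Hedgehog signalling at the membrane protein Smoothened) or with DMSO, the solvent control. Each of these 9 libraries pooled 3 brains, with 3 libraries per group. The time course table held 18 libraries of untreated, wild-type brain, 3 at each of stages 40, 42, 44, 45, 46 and 47. Whole dissected brains were used, so fewer cells of a type and less RNA per cell cannot be told apart.

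Netrins bind DCC, which mostly mediates attraction, and UNC5 receptors, which mediate repulsion. Slits are secreted repellents read by Robo receptors, and together with netrins they govern whether axons cross the midline. Secreted class 3 semaphorins act through a neuropilin that holds the ligand and a plexin that signals, whereas membrane-bound semaphorins bind plexins directly. Ephrins are anchored to the cell surface and signal to Eph receptor tyrosine kinases on neighbouring cells, the basis of the retinotectal map in frogs and other vertebrates.

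Depth was 17643953 to 28482659 counts per drug library and 12936346 to 48271379 counts per time course library. Every one of the 61 genes reached 1 CPM (the count scaled to library size) in all 9 drug libraries, and 60 of 61 did so in all 18 time course libraries, the exception being plxnc1 with 16. The lowest count of any of them in any library was 16, so none was limited by a count of 0. Replicates were less alike in the drug groups, with a biological coefficient of variation of 0.227 for estradiol and 0.21 for cyclopamine, against 0.0899 for DMSO. It was 0.0554 to 0.102 within the stages. Neuronal markers were abundant in the brain libraries, with all 11 of a fixed list measured and none at 0, and their summed level was 6502 to 9188 CPM with estradiol, 7060 to 8812 CPM with cyclopamine and 9232 to 9489 CPM with DMSO. Estradiol replicate 3 stood apart from the other estradiol libraries in progenitor and proliferation markers, and cyclopamine replicate 3 from the other cyclopamine libraries in mesenchymal markers. Values without them are given for the main results they touch. Levels below are TMM-normalized CPM, and fold changes are log2 values ± SE from edgeR's quasi-likelihood test with 3 libraries per group. The SE was worked back from the test, as the size of the log2 fold change divided by the square root of F. The spread behind it was estimated from all 9 drug libraries or all 18 time course libraries together. A gene was called when its p, adjusted by Benjamini-Hochberg over all genes of the table, was under 0.05.

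In cyclopamine brains part of the guidance set was lower than in DMSO brains, with the netrins ntn3 and ntn5, the co-receptor nrp2 and the slit receptor robo1 showing the lowest log2 fold changes of the genes called. The plexins plxnd1 and plxnc1 and the netrin ntn4 were higher. In total 14 of 61 genes (23.0%) were called against DMSO, 3 higher and 11 lower, against 19.6% of all genes called in that comparison, 9.97% higher and 9.59% lower. The share called was thus near that of all genes. The median log2 fold change was -0.21 over the 61 genes and -0.08 over all genes, and 46 of the 61 values lay below 0, against 58.1% of all genes. The tally below 0 depended on the scaling. With relative log expression size factors nrp1, ntn1, robo2 and slit3 moved from just below 0 to just above it. The share of all genes below 0 was counted in the main fit only. Among ligands 1 rose and 5 fell, and among receptors 2 rose and 6 fell.

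**Figure D1:**
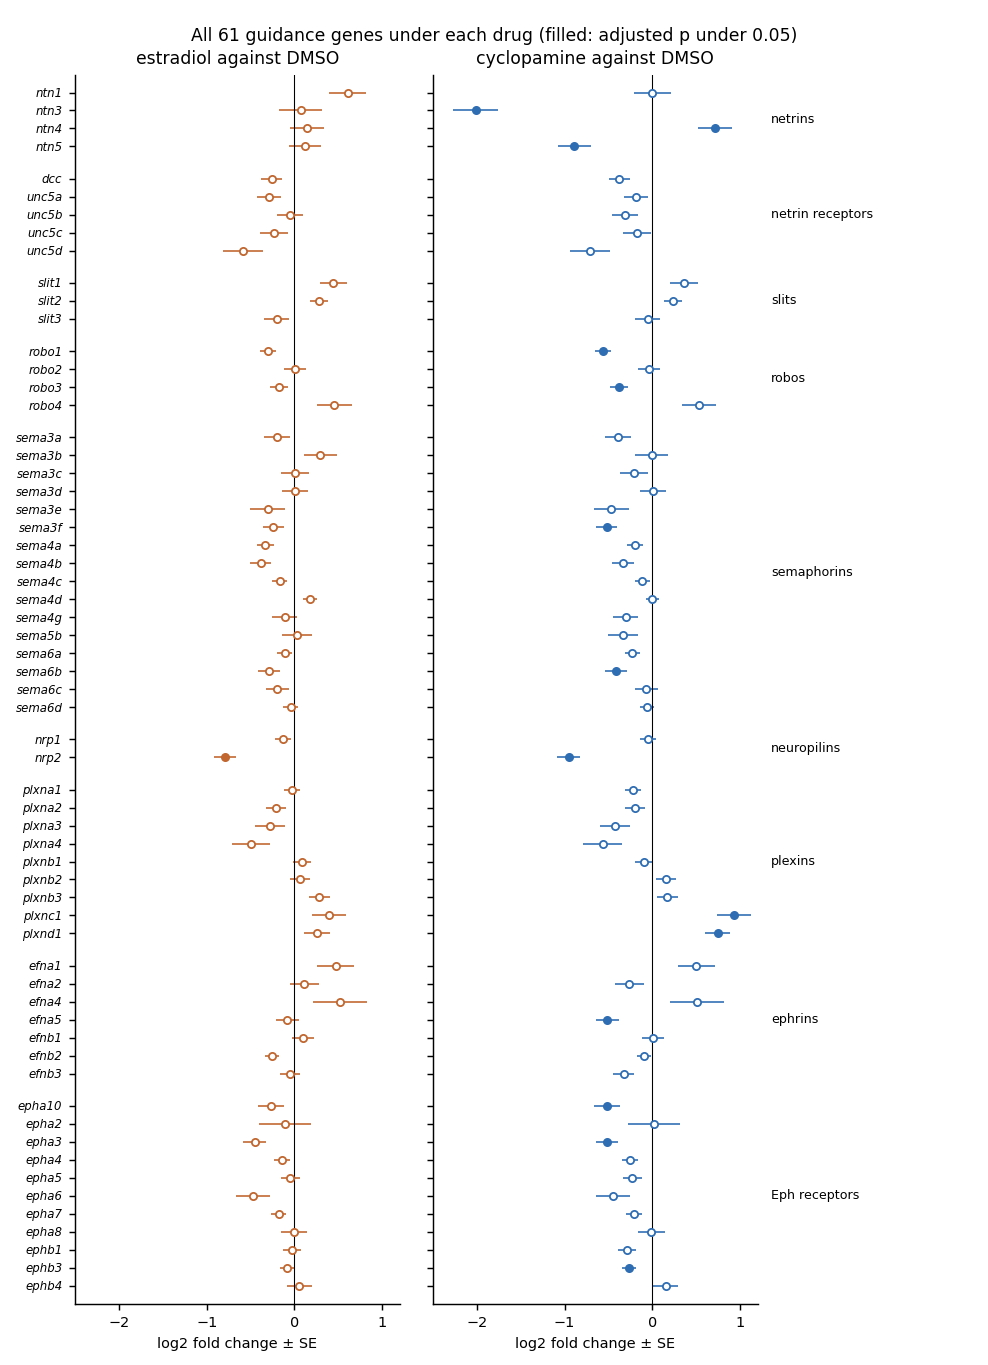
Log2 fold change ± SE (x axis) of each of the 61 guidance genes against DMSO, estradiol on the left and cyclopamine on the right, with genes grouped by family down the page (3 libraries per group, filled points have an adjusted p under 0.05). One point is filled under estradiol, nrp2, and 14 are filled under cyclopamine, with ntn3 farthest from 0 at -2.01.

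Among the netrins, ntn3, a secreted netrin that binds DCC and UNC5 receptors in mammals, had 8.27, 11.1 and 9.63 CPM in the cyclopamine libraries, against 37.4, 34.5 and 44.9 CPM in the DMSO libraries. All 3 cyclopamine libraries lay far below every DMSO library. The log2 fold change was -2.01 ± 0.26 (edgeR adjusted p = 0.00101), a level 4.04-fold lower with cyclopamine. The less studied secreted netrin ntn5 had 16.7, 16.6 and 16.2 CPM with cyclopamine, against 30.3, 27.6 and 33.9 CPM with DMSO. These groups did not overlap either (-0.89 ± 0.19, edgeR adjusted p = 0.0101).

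The other 2 netrins did not fall. Netrin-1 (ntn1), the classical floor plate attractant for commissural axons, had 58.5, 47.0 and 39.8 CPM with cyclopamine and 48.5, 48.8 and 48.4 CPM with DMSO. The cyclopamine libraries lay on both sides of the DMSO libraries, and the log2 fold change was -0.00 ± 0.21 (edgeR adjusted p = 0.994). Netrin-4 (ntn4), a basement membrane netrin related to laminin chains, was the one netrin that rose, to 6.84, 7.63 and 7.50 CPM with cyclopamine, against 4.97, 4.68 and 3.76 CPM with DMSO (0.71 ± 0.19, edgeR adjusted p = 0.029).

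None of the 5 netrin receptors was called with cyclopamine, although all 5 log2 fold changes were below 0, between -0.71 and -0.18. The attractive receptor dcc came closest together with unc5d. It had 64.5, 55.7 and 59.4 CPM with cyclopamine, against 82.9, 77.2 and 73.0 CPM with DMSO (-0.38 ± 0.12, edgeR adjusted p = 0.0551). The repulsive receptor unc5d had 67.6, 77.8 and 62.2 CPM, against 124, 115 and 100 CPM with DMSO (-0.71 ± 0.23, edgeR adjusted p = 0.0549). For both genes the cyclopamine libraries were all below the DMSO libraries, which was so for 34 of the 61 guidance genes and for 30.2% of all genes, and neither passed the threshold. The log2 fold changes of unc5a and unc5b were -0.19 ± 0.14 and -0.31 ± 0.15.

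Neuropilin-2 (nrp2), which holds class 3 semaphorins such as Sema3F, had 64.5, 61.9 and 55.7 CPM in the cyclopamine libraries, against 134, 115 and 105 CPM with DMSO. Every cyclopamine value was well under every DMSO value (-0.96 ± 0.13, edgeR adjusted p = 0.00113). Its ligand gene sema3f also fell, to 33.8, 42.4 and 36.9 CPM with cyclopamine, against 56.7, 52.4 and 53.2 CPM with DMSO (-0.52 ± 0.12, edgeR adjusted p = 0.0136). The second neuropilin, nrp1, the co-receptor for Sema3A and for VEGF, had 208, 181 and 194 CPM with cyclopamine and 207, 200 and 196 CPM with DMSO, which overlapped (-0.05 ± 0.09, edgeR adjusted p = 0.734).

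Of the 16 semaphorins, sema3f and sema6b were called, both lower with cyclopamine. The membrane-bound sema6b, a ligand of plexin A4, had 51.4, 61.7 and 57.1 CPM, against 78.2, 74.3 and 73.8 CPM with DMSO (-0.41 ± 0.12, edgeR adjusted p = 0.0428). The other 14 had log2 fold changes between -0.47 and 0.01. They included sema3a, a repellent of sensory and cortical axons, at -0.39 ± 0.15, and sema3d at 0.01 ± 0.15.

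The plexins were the one receptor family with rises. Plexin D1 (plxnd1), the receptor of Sema3E in vessels and some neurons, had 95.9, 74.8 and 80.3 CPM with cyclopamine, against 49.2, 49.6 and 51.1 CPM with DMSO (0.74 ± 0.14, edgeR adjusted p = 0.00729). Plexin C1 (plxnc1), the receptor of Sema7A on neurons and myeloid cells, had 5.30, 4.87 and 4.41 CPM, against 2.20, 2.57 and 2.86 CPM with DMSO (0.93 ± 0.19, edgeR adjusted p = 0.00936). In both cases the cyclopamine libraries were all above the DMSO libraries. The other 7 plexins were not called, and the class A members that signal for neuropilins had log2 fold changes of -0.22 ± 0.09 (plxna1), -0.20 ± 0.11 (plxna2), -0.42 ± 0.17 (plxna3) and -0.57 ± 0.22 (plxna4).

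Of the Slit and Robo genes, 2 receptors fell and no ligand was called. The receptor robo1 had 82.2, 84.9 and 76.1 CPM with cyclopamine, against 123, 121 and 117 CPM with DMSO, with a wide gap between the groups (-0.57 ± 0.09, edgeR adjusted p = 0.0032). The receptor robo3, which in mammals lets commissural axons cross the midline, fell less, to 111, 130 and 122 CPM, against 158, 153 and 160 CPM with DMSO (-0.38 ± 0.10, edgeR adjusted p = 0.0285). The 3 slits were not called. Slit1 had 496, 442 and 404 CPM with cyclopamine, against 346, 330 and 370 CPM with DMSO (0.36 ± 0.16, edgeR adjusted p = 0.121), slit2 had a log2 fold change of 0.23 ± 0.10 and slit3 one of -0.05 ± 0.14. For slit1 and slit2 all cyclopamine libraries were above all DMSO libraries, but neither passed the threshold. How often such a separation upward occurs over all genes is not given here. The neuronal receptor robo2 had a log2 fold change of -0.04 ± 0.12, and robo4, known in mammals and zebrafish as the endothelial family member, one of 0.53 ± 0.20 (edgeR adjusted p = 0.0817).

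Eph receptors showed 3 calls among 11 genes, all lower with cyclopamine, and 9 of the 11 log2 fold changes were below 0. The ephrin-A receptor epha3 had 21.8, 20.4 and 23.8 CPM, against 34.6, 31.0 and 29.0 CPM with DMSO (-0.52 ± 0.13, edgeR adjusted p = 0.0198). Its relative epha10, which lacks kinase activity in mammals, had 55.1, 63.6 and 62.0 CPM, against 83.7, 85.1 and 89.0 CPM with DMSO (-0.51 ± 0.15, edgeR adjusted p = 0.0358). Both genes separated the groups fully. The ephrin-B receptor ephb3 fell least, by 0.27 ± 0.08 on the log2 scale (edgeR adjusted p = 0.0396), and epha4, epha7 and ephb1 were at -0.26 ± 0.09, -0.21 ± 0.09 and -0.29 ± 0.10 without a call.

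Among the 7 ephrins efna5 alone was called. This cell-surface repellent of retinal axons had 28.4, 25.8 and 21.5 CPM with cyclopamine, against 38.9, 37.9 and 31.4 CPM with DMSO (-0.51 ± 0.13, edgeR adjusted p = 0.0228). The highest cyclopamine library was just under the lowest DMSO library. Efnb1 and efnb2 were at 0.01 ± 0.13 and -0.10 ± 0.08, and the remaining ephrins lay between -0.33 and 0.51.

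**Figure D2:**
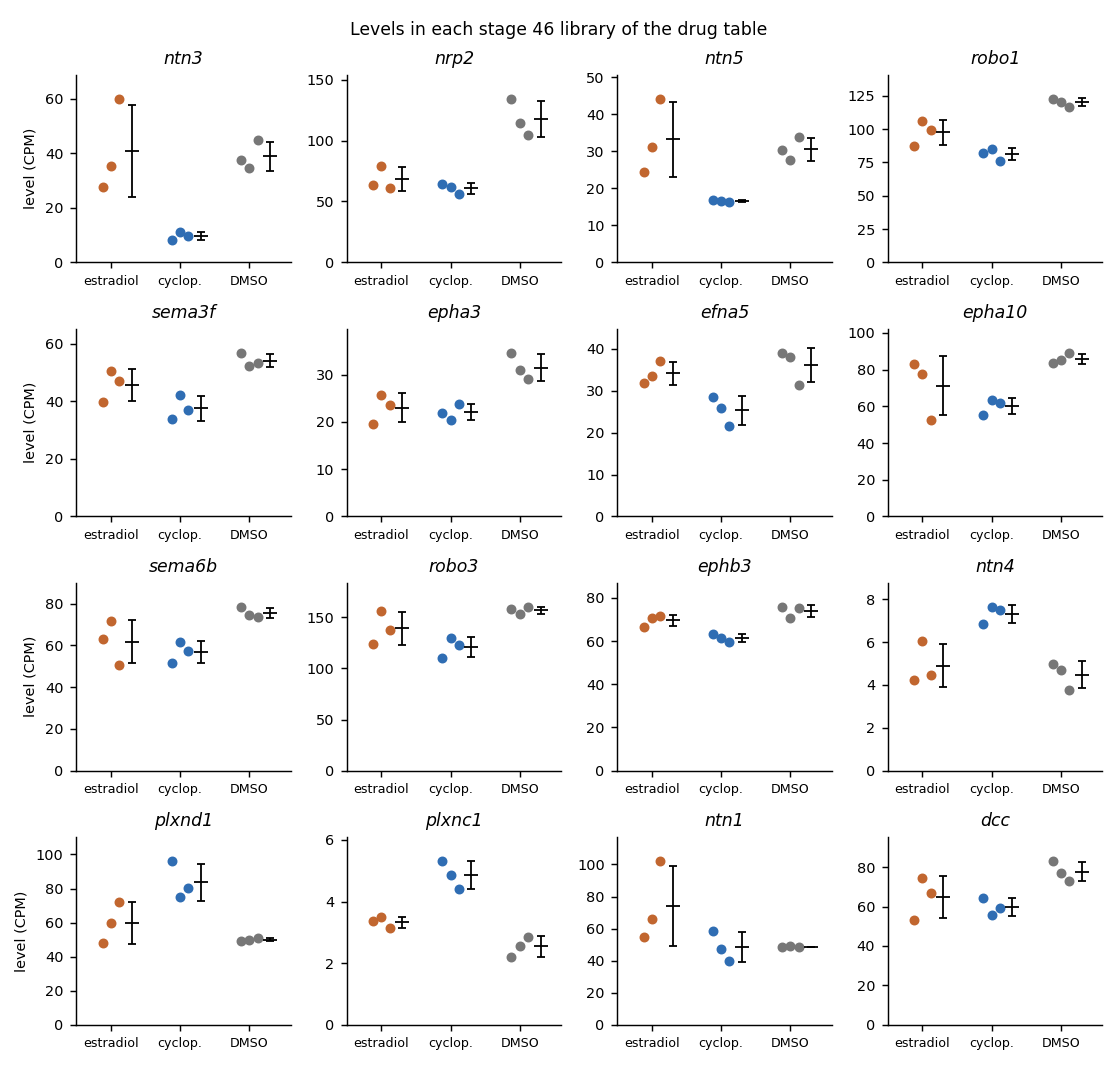
Level in CPM (y axis, from 0) in each library of estradiol, cyclopamine and DMSO brains (x axis) for the 14 genes called with cyclopamine and for ntn1 and dcc, with black bars giving the mean ± SD (n = 3). The 3 cyclopamine libraries of ntn3 sit between 8.27 and 11.1 CPM, below all other libraries, and nrp2 is low in the libraries of both drugs.

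Marker genes of other cell types differed between the same groups. Of 10 endothelial markers 9 rose with cyclopamine, with a summed level of 321 to 471 CPM, against 171 to 188 CPM with DMSO. Of 8 leukocyte and microglia markers 7 rose, summing to 89.4 to 118 CPM, against 33.6 to 41.7 CPM. Muscle markers (5 of 6 higher), melanocyte markers (6 of 8), mesenchymal markers (4 of 10, 249, 524 and 1479 CPM against 145 to 186 CPM with DMSO) and epidermal markers (3 of 5) moved the same way. Proliferation markers fell (5 of 8, 125 to 128 CPM against 242 to 286 CPM with DMSO), as did 3 of 11 neuronal markers and 2 of 9 neural progenitor markers. Retina and lens markers summed to 4.53 to 19.5 CPM with cyclopamine and 24.9 to 27.9 CPM with DMSO, with 1 of 5 called lower. Of 6 red blood cell markers none was called. No measured marker was at 0 in a drug group. The part of these differences in the plexin, netrin and ephrin results was not tested.

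The cyclopamine calls differed in how far they depended on single libraries. Those of ntn3, nrp2 and plxnd1 were kept in all 14 alternative analyses. The call of robo1 was lost with cyclopamine replicate 1 as that group's sole library (edgeR adjusted p = 0.108), that of plxnc1 without DMSO replicate 1 (edgeR adjusted p = 0.0532), and that of ntn5 without cyclopamine replicate 3 or with cyclopamine replicate 1 alone (adjusted p up to 0.178 over the alternatives). The number called was 5 without cyclopamine replicate 3 and also 5 without DMSO replicate 1. It was 7 without DMSO replicate 2, 8 without cyclopamine replicate 1 and 9 without DMSO replicate 3. Leaving out any of the 6 libraries in turn ended the calls of ephb3 and epha10, whose adjusted p reached 0.607 and 0.226 over the alternatives. In the same 6 fits, the calls of robo3 and sema6b were kept only without cyclopamine replicate 2. That of epha3 was kept only without DMSO replicate 3, and that of ntn4 only without cyclopamine replicate 1. Over all alternatives the adjusted p reached 0.169 for robo3, 0.216 for sema6b, 0.242 for epha3 and 0.207 for ntn4. The call of efna5 was lost without cyclopamine replicate 3, DMSO replicate 1 or DMSO replicate 2 (up to 0.459), and that of sema3f without cyclopamine replicate 1, cyclopamine replicate 3 or DMSO replicate 1 (up to 0.0746). With DESeq2, 6 genes were higher and 11 lower.

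With estradiol, 1 guidance gene passed the threshold against DMSO, the co-receptor nrp2, which was lower. This was 1 of 61 genes (1.64%), against 2.07% of all genes called, 1.23% higher and 0.833% lower, and 17 of the 61 (27.9%) had an unadjusted p under 0.05, against 22.3% of all genes. The level of nrp2 was 63.9, 79.5 and 61.0 CPM with estradiol, against 134, 115 and 105 CPM with DMSO, and the groups did not overlap (-0.79 ± 0.13, edgeR adjusted p = 0.0167). The call was lost without DMSO replicate 1 or DMSO replicate 2 (adjusted p up to 0.101 over the alternatives), which left 0 calls, while 7 genes were called without estradiol replicate 2. Both drug comparisons share the DMSO libraries. Against DMSO, estradiol brains had 4 of 8 leukocyte and microglia markers, 2 of 6 muscle markers, 2 of 8 melanocyte markers and 1 of 6 red blood cell markers higher, and their part in the nrp2 result was not tested. In the untreated time course, which was normalized separately, nrp2 ranged from 71.1 to 112 CPM over all libraries and from 94.8 to 103 CPM at stage 46.

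Directly against cyclopamine, estradiol brains had more of 2 netrin transcripts. The 2 genes called, ntn3 and ntn5, made up 3.28% of the 61, against 6.77% of all genes called, 4.16% higher and 2.6% lower. For ntn3 the estradiol libraries had 27.7, 35.2 and 60.0 CPM, against 8.27, 11.1 and 9.63 CPM with cyclopamine (2.09 ± 0.26, edgeR adjusted p = 0.0028). For ntn5 they had 24.5, 31.1 and 44.2 CPM, against 16.7, 16.6 and 16.2 CPM (1.01 ± 0.19, edgeR adjusted p = 0.0118). All estradiol libraries were above all cyclopamine libraries for both genes. Without estradiol replicate 3, the highest library for both, the log2 fold changes were 1.67 for ntn3 and 0.72 for ntn5, and 4 genes were called. The ntn5 call was lost without cyclopamine replicate 3, with only the groups compared in the fit, and with cyclopamine replicate 1 alone (adjusted p up to 0.203 over the alternatives). For nrp2 the difference between the drugs was 0.17 ± 0.13 (edgeR adjusted p = 0.493). Cell type markers also differed between the 2 drugs. All 8 measured proliferation markers, 2 of 9 neural progenitor markers and 1 of 6 red blood cell markers were higher with estradiol. Lower with estradiol were 4 of 6 muscle markers, 3 of 10 endothelial markers and 1 of 8 leukocyte and microglia markers. Their part in the netrin results was not tested.

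Estradiol replicate 3 had the highest value of the 9 drug libraries for 19 of the 61 genes (31.1%, against 21.4% of all genes) and the lowest for 15 (24.6%, against 21.7%). DMSO replicate 1 was the highest for 17 genes (27.9%, against 13.9% of all genes), and estradiol replicate 1 the lowest for 13 (21.3%, against 9.92%). Of the 19 highest in estradiol replicate 3, 15 were lower at stage 47 than at stage 40 in the untreated brains and none was higher. Of the 15 lowest there, 9 were higher at stage 47 and 3 lower. Over all genes 40.0% were called higher at stage 47 and 40.8% lower. The split among all genes highest or lowest in estradiol replicate 3 was not counted, so this split cannot be read as particular to guidance genes. The netrin ntn1, 1 of the 19, had 54.5, 65.8 and 102 CPM in estradiol replicates 1, 2 and 3, against 48.4 to 48.8 CPM with DMSO. Its log2 fold change was 0.61 ± 0.21 (edgeR adjusted p = 0.134), and 0.34 without replicate 3. In the same order slit1 had 360, 486 and 575 CPM, and plxna4 had 70.6, 96.9 and 45.6 CPM. The log2 fold change against DMSO was 0.44 ± 0.16 for slit1 (0.31 without replicate 3) and -0.49 ± 0.22 for plxna4 (-0.23 without replicate 3), and neither was called. Proliferation markers summed to 394.5 (replicate 1), 300.5 (replicate 2) and 747 CPM (replicate 3), and neural progenitor markers to 4143, 4178 and 5982 CPM. Their part in the values of replicate 3 was not tested.

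Among 82 partners and effectors of guidance receptors, 78 of them measured in the drug table, 16 fell with cyclopamine and 0 rose, against 9.59% of all genes lower and 9.97% higher. The number that fell was 4 without cyclopamine replicate 3, 4 without DMSO replicate 1, 7 without cyclopamine replicate 1, 8 without DMSO replicate 2, 9 without DMSO replicate 3 and 13 without cyclopamine replicate 2, where 1 rose. DESeq2 gave 17 lower and 3 higher, only the groups compared 20 and 5, and a mean of at least 5 CPM 10 and 2. Relative log expression size factors gave 14 lower and 1 higher, and limma 9 lower and 0 higher. The median log2 fold change of this list was -0.21, against -0.08 over all genes. The lowest p belonged to draxin, a secreted antagonist that binds netrin and DCC (-0.75 ± 0.10, edgeR adjusted p = 0.00143). It was followed by pak3, a kinase below Rac and Cdc42 (-0.76 ± 0.12, edgeR adjusted p = 0.00229), and flrt3, a membrane protein that binds UNC5 receptors (-0.71 ± 0.12, edgeR adjusted p = 0.00411). The fall also took in cdk5r1, the activator of the kinase Cdk5 (-0.61 ± 0.11), nell2, a ligand of Robo3 in mammals (-0.61 ± 0.18), and usp33, a deubiquitinase that binds Robo1 (-0.67 ± 0.15). With estradiol 3 of the list fell and 0 rose, against 0.833% of all genes lower and 1.23% higher. These were draxin (-0.58 ± 0.10, edgeR adjusted p = 0.023), cdk5r1 (-0.54 ± 0.11, edgeR adjusted p = 0.0384) and dpysl3, a collapsin response mediator (-0.42 ± 0.09, edgeR adjusted p = 0.0484). None of the list was called when any 1 DMSO library or estradiol replicate 1 was left out, nor with limma, and the count was 1 without estradiol replicate 3 and 9 without estradiol replicate 2.

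In untreated brain the guidance genes split between those higher at stage 47 than at stage 40 and those lower. In this comparison 49 of 61 genes (80.3%) were called, against 80.8% of all genes. Of them 22 were higher and 27 lower, against 40.0% and 40.8% of all genes. Ligands leaned one way in count, with 7 higher and 15 lower, whereas 15 receptors were higher and 12 lower. These splits depended on the processing. Over the 61 genes limma gave 25 higher and 24 lower. A mean of at least 5 CPM gave 24 and 22 over fewer genes. That fit did not test guidance genes under this mean, such as epha2, ntn4 and plxnc1. Both added calls of efna2, sema3a, sema4a and slit2, which are all ligands with a higher mean at stage 47. A difference somewhere among the 6 stages was called for 55 genes (90.2%), against 88.4% of all genes, the 6 others being efna1, efnb3, nrp2, plxna2, sema3c and sema4c. By family the lowest p of that test belonged to robo4 (edgeR adjusted p = 3.26e-14), epha6 (8.4e-12), ntn1 (1.29e-11), sema4g (3.32e-11), efnb1 (1.05e-09), unc5d (3.43e-09), slit1 (1.11e-08), nrp1 (1.09e-05) and plxna4 (1.19e-05). In size, the highest stage mean was a median of 1.408 times the lowest over the 61 genes, against 1.865 times over all genes.

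**Figure D3:**
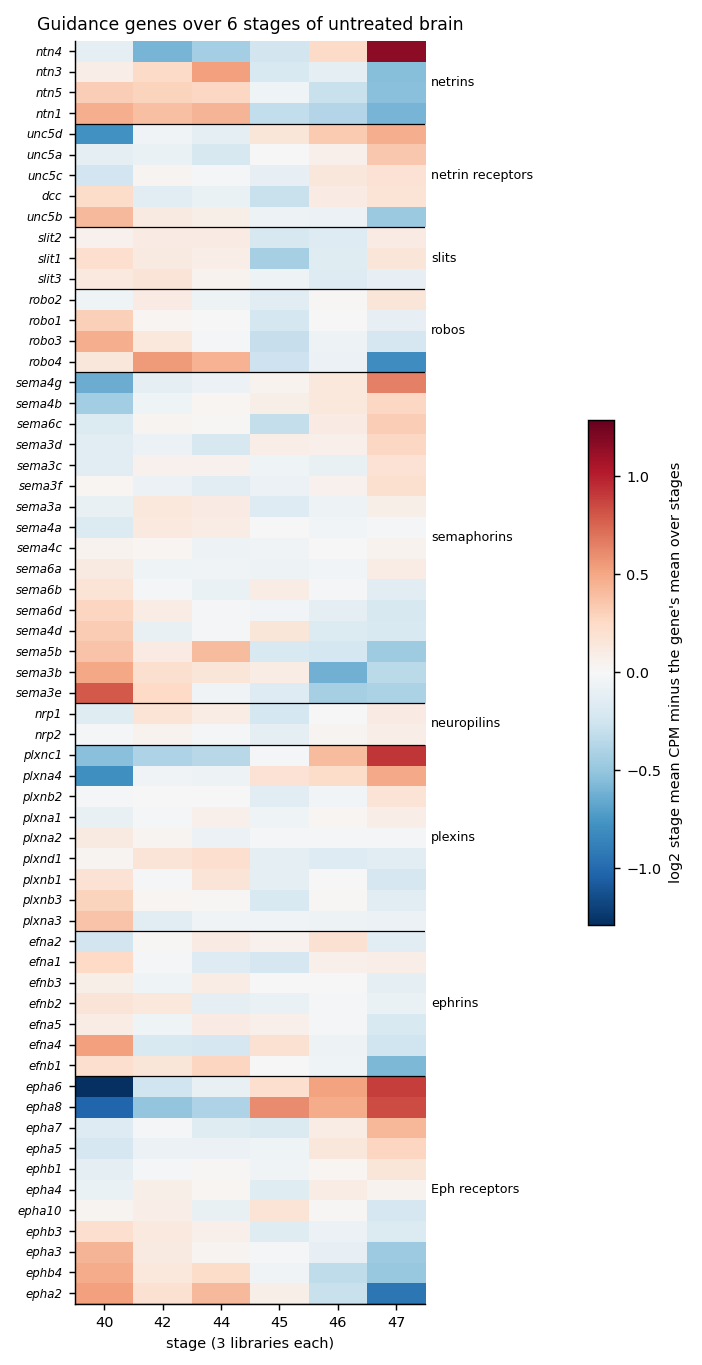
Each row is 1 of the 61 guidance genes, grouped by family, and each column 1 of the 6 stages of untreated brain (3 libraries each), with colour giving the log2 stage mean CPM minus the gene's mean over stages. Epha6, epha8, plxnc1 and ntn4 run from blue at stage 40 or 42 to red at stage 47, and epha2, ephb4, sema3e and ntn1 run the other way.

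All 11 Eph receptors differed between stages 47 and 40, 6 higher and 5 lower. The largest log2 fold change of any guidance gene was that of epha6, an ephrin-A receptor, which had 45.3, 43.2 and 39.3 CPM at stage 47, against 7.56, 11.7 and 8.80 CPM at stage 40 (2.20 ± 0.13, edgeR adjusted p = 2.93e-13). The related epha8 had 10.6, 10.1 and 9.73 CPM at stage 47, against 2.78, 2.48 and 3.05 CPM at stage 40 (1.85 ± 0.14, edgeR adjusted p = 2.41e-11). For both genes the stages were far apart. Epha7, epha5, ephb1 and epha4 were also higher, with log2 fold changes of 0.60, 0.49, 0.29 and 0.13. The call of epha4 was lost in 5 of the alternatives that leave out a library, with an adjusted p of up to 0.109.

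In the other direction, epha2, an Eph receptor best known from epithelia, had 1.64, 1.30 and 2.18 CPM at stage 47, against 4.61, 5.59 and 3.87 CPM at stage 40 (-1.43 ± 0.22, edgeR adjusted p = 2.99e-06). Ephb4, the venous receptor of ephrin-B2, had 27.1, 22.6 and 25.3 CPM at stage 47, against 45.6, 49.8 and 50.6 CPM at stage 40 (-0.96 ± 0.09, edgeR adjusted p = 4.67e-10). No stage 47 library reached a stage 40 library for either gene, and epha3 was lower by a similar amount (-0.90 ± 0.10, edgeR adjusted p = 2.31e-08). Among the ephrins 5 of 7 were lower and none higher. Efnb1, a membrane-spanning ephrin, had 146, 148 and 137 CPM at stage 47, against 229, 262 and 261 CPM at stage 40 (-0.80 ± 0.07, edgeR adjusted p = 2.23e-10).

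Netrins and their receptors went opposite ways in count. Of the 4 netrins 3 were lower at stage 47, and of the 5 receptors 3 were higher and 1 lower. Ntn1 had 37.4, 35.9 and 35.4 CPM at stage 47, against 80.9, 72.6 and 75.2 CPM at stage 40 (-1.07 ± 0.09, edgeR adjusted p = 7.46e-11). Ntn5 and ntn3 were lower too (-0.86 ± 0.09 and -0.64 ± 0.09), and ntn4 was higher, with 7.04, 6.22 and 7.83 CPM at stage 47 and 2.89, 2.99 and 2.85 CPM at stage 40 (1.27 ± 0.16, edgeR adjusted p = 1.21e-07).

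The receptor unc5d averaged 45.1, 75.0, 71.1, 86.7, 98.2 and 107 CPM over stages 40 to 47, and was 1.25 ± 0.10 higher on the log2 scale at stage 47 than at stage 40 (edgeR adjusted p = 1.62e-10). Unc5b averaged 77.0, 62.6, 60.7, 54.9, 54.8 and 41.3 CPM over the same stages (-0.90 ± 0.08, edgeR adjusted p = 1.09e-09). The 2 repulsive netrin receptors thus ran in opposite directions. Unc5a and unc5c were higher at stage 47 by 0.48 ± 0.06 and 0.44 ± 0.12. The attractive receptor dcc was not called between stages 47 and 40 (-0.06 ± 0.09, edgeR adjusted p = 0.578). Its means of 73.2, 56.5, 58.8, 51.0, 66.8 and 70.3 CPM over stages 40 to 47 were lowest in the middle stages.

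**Figure D4:**
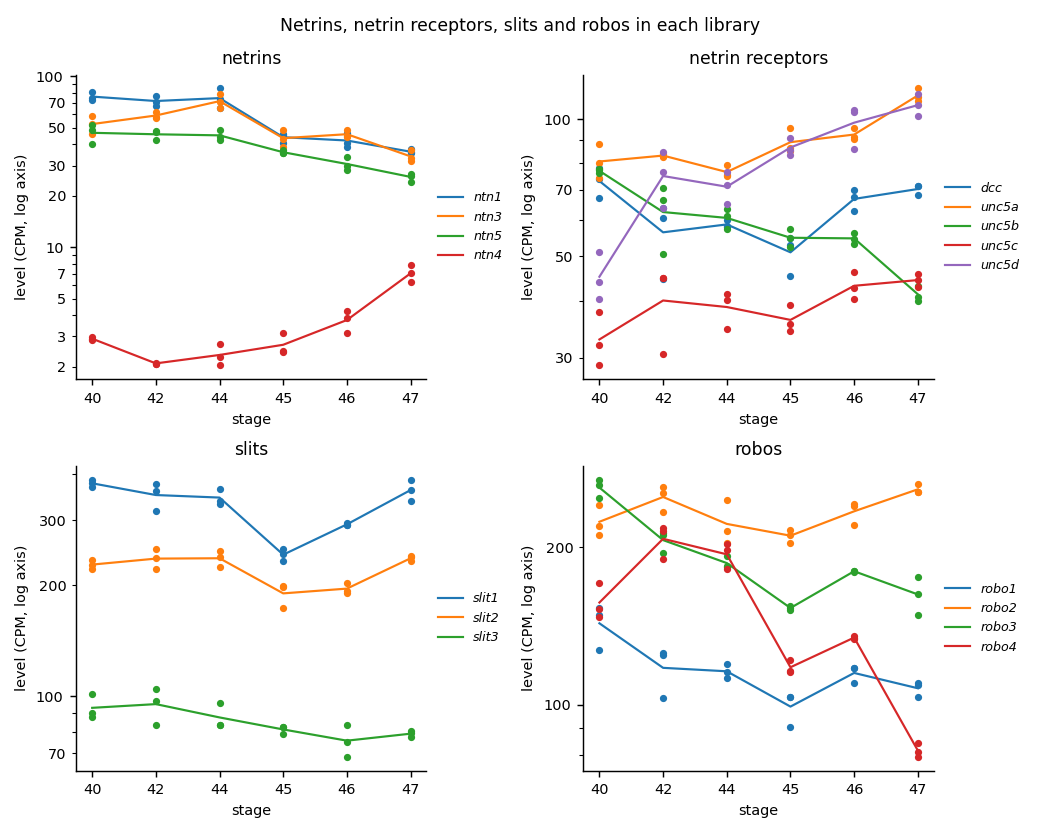
Level in CPM (y axis, log scale) of the netrins, netrin receptors, slits and robos against stage (x axis), with a point for each of the 3 libraries per stage and a line through the stage means. Ntn1, ntn3, slit1, slit2 and robo4 are lower at stage 45 than at stage 44, and slit1 and slit2 are higher again at stage 47.

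Of the 4 robos 3 were lower at stage 47 than at stage 40 and 1 was higher. The receptor robo4 had 84.3, 81.2 and 79.4 CPM at stage 47, against 171, 153 and 147 CPM at stage 40, with the stages far apart (-0.94 ± 0.06, edgeR adjusted p = 3.02e-12). The log2 fold changes of robo3, robo1 and robo2 were -0.68 ± 0.06, -0.42 ± 0.08 and 0.21 ± 0.07. The ligands slit1 and slit2 were not called (edgeR adjusted p = 0.363 and 0.374). Slit3 was lower by a small amount (-0.23 ± 0.08, edgeR adjusted p = 0.0114), a call lost without stage 40 replicate 1, with a mean of at least 5 CPM required and with limma (adjusted p up to 0.162).

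Semaphorins were evenly divided, with 6 of 16 higher and 6 lower at stage 47. The membrane-bound sema4g, a class 4 member, had 49.9, 49.5 and 49.5 CPM at stage 47, against 20.6, 21.6 and 18.8 CPM at stage 40 (1.30 ± 0.08, edgeR adjusted p = 5.77e-13). Sema4b and sema6c were also higher (0.72 ± 0.09 and 0.49 ± 0.06). The secreted sema3e, the ligand of Plexin D1, had 4.52, 3.58 and 3.85 CPM at stage 47, against 8.17, 9.99 and 9.19 CPM at stage 40 (-1.19 ± 0.18, edgeR adjusted p = 1.56e-06). For sema4g and sema3e no library of one stage came near those of the other. Sema3b and sema5b were lower (-0.84 ± 0.08 and -0.83 ± 0.10), sema3d was higher (0.40 ± 0.08), and sema3a was not called (0.17 ± 0.10, edgeR adjusted p = 0.127). Sema3f was higher by 0.18 ± 0.08 (edgeR adjusted p = 0.0356), a call lost without stage 40 replicate 1, stage 47 replicate 1 or stage 47 replicate 2.

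Of the 9 plexins 4 were higher and 3 lower at stage 47. Plexin A4 (plxna4), which transduces Sema3A and Sema6 signals, had 98.0, 101 and 107 CPM at stage 47, against 39.0, 44.5 and 42.6 CPM at stage 40 (1.28 ± 0.14, edgeR adjusted p = 3.84e-07). Plxnc1, with under 4.3 CPM in every time course library, was higher by 1.48 ± 0.29 (edgeR adjusted p = 5.99e-05). Its relatives plxna1 and plxnb2 were higher by 0.18 ± 0.05 and 0.20 ± 0.07, plxna3, plxnb1 and plxnb3 were lower by 0.41 to 0.46, and plxna2 and plxnd1 were not called. With limma the plxna1 call was lost (adjusted p = 0.0513). The neuropilins showed little movement: nrp1 was higher by 0.26 ± 0.06 (edgeR adjusted p = 0.000651), and nrp2 was not called (0.10 ± 0.15, edgeR adjusted p = 0.559), with 71.1 and 71.6 CPM in the first replicates of stages 40 and 42 and 85.3 to 112 CPM in the other libraries.

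The step into stage 45 was where guidance genes were lower most often relative to all genes. Against stage 44, 18 genes fell and 5 rose (23 of 61, 37.7%), against 22.8% of all genes called, 11.2% lower and 11.6% higher. The median log2 fold change was -0.09 over the 61 genes and -0.00 over all genes, and 42 of the 61 values were below 0, against 50.2% of all genes. The fall took in 3 of 4 netrins, 3 of 4 robos, 2 of 3 slits, 3 of 9 plexins, 3 of 11 Eph receptors, 2 of 16 semaphorins, efnb1 and nrp1. Leaving out 1 library of either stage gave 13 to 18 genes lower. It gave 1 gene higher without stage 44 replicate 2, 2 without stage 45 replicate 2 or 3, 3 without stage 44 replicate 1, and 4 or 5 otherwise.

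Robo4 had 116, 122 and 116 CPM at stage 45, against 182, 203 and 197 CPM at stage 44 (-0.72 ± 0.06, edgeR adjusted p = 1.69e-07). Ntn1 had 40.9, 45.3 and 46.1 CPM at stage 45, against 74.0, 85.2 and 65.0 CPM at stage 44 (-0.76 ± 0.09, edgeR adjusted p = 4.07e-06). The repellent slit1 had 233, 250 and 244 CPM at stage 45, against 333, 366 and 339.7 CPM at stage 44 (-0.51 ± 0.06, edgeR adjusted p = 7.07e-06). For each of these genes all stage 45 libraries lay below all stage 44 libraries. Ntn3 (-0.71 ± 0.09), slit2 (-0.32 ± 0.06), robo3 (-0.29 ± 0.06) and robo1 (-0.23 ± 0.08) fell as well, while epha8 rose by 1.02 ± 0.14.

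For several of these genes the lower level at stage 45 was not kept. Slit1 was higher at stage 46 than at stage 45 (0.27 ± 0.06, edgeR adjusted p = 0.00111) and higher again at stage 47 than at stage 46 (0.31 ± 0.06, edgeR adjusted p = 0.000255), which brought it to 387, 363 and 338 CPM. Nrp1 and robo3, which had both fallen at stage 45, were also higher at stage 46 than at stage 45 (0.24 ± 0.06 and 0.23 ± 0.06). The receptor dcc was higher at stage 46 than at stage 45 (0.39 ± 0.10) without a call between stages 45 and 44 (-0.21 ± 0.10, edgeR adjusted p = 0.135). In all, 16 of the 61 genes (26.2%) had their lowest stage mean at stage 45, against 8.51% of all genes. These were dcc, efna1, epha4, epha7, nrp1, nrp2, plxnb2, plxnb3, robo1, robo2, robo3, sema3a, sema6a, sema6c, slit1 and slit2. The place of the lowest mean was not itself tested, and for efna1, nrp2, robo2 and sema3a no adjacent stage pair was called. Stage 40 held the highest mean of 25 genes (41%, against 32.5% of all genes) and stage 47 that of 21 (34.4%, against 37.7%).

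The other steps showed counts near or under those of all genes. Between stages 42 and 40, 13 genes rose and 18 fell (31 of 61, 50.8%), against 47.0% of all genes, 24.7% higher and 22.4% lower, with the lowest p for epha6 (1.05 ± 0.13, edgeR adjusted p = 1.28e-06) and unc5d (0.74 ± 0.10, edgeR adjusted p = 4.42e-06). The majority direction was not stable. Without stage 42 replicate 1, 19 rose and 14 fell, and with a mean of at least 5 CPM 17 rose and 14 fell. The latter fit left out guidance genes under that mean, such as epha2 and ntn4. Between stages 44 and 42, efnb2 alone was called (-0.25 ± 0.06, edgeR adjusted p = 0.0309), against 2.32% of all genes, 1.43% higher and 0.891% lower. This call was lost without stage 42 replicate 2 or 3 or stage 44 replicate 1 or 2, and 4 genes were called without stage 42 replicate 1. Between stages 46 and 45, 13 genes rose and 4 fell (27.9%), against 42.1% of all genes, 19.2% higher and 22.9% lower. Here sema3b fell (-0.71 ± 0.08, edgeR adjusted p = 3.98e-07) and sema6c rose (0.41 ± 0.07, edgeR adjusted p = 2.55e-05), and the count that fell was 2 without stage 46 replicate 3. Between stages 47 and 46, 12 rose and 10 fell (36.1%), against 48.8% of all genes, 23.0% higher and 25.8% lower, with robo4 (-0.72 ± 0.06, edgeR adjusted p = 3.71e-09) and efnb1 (-0.52 ± 0.07, edgeR adjusted p = 1.61e-06) leading. Stage means of epha6, plxnc1, sema4b and sema4g rose at every step, and those of epha3, ntn5, sema6d and unc5b fell at every step.

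Progenitor and proliferation markers moved across the same stages. The summed level of 9 neural progenitor markers had a median of 5421, 5658, 5284, 3925, 3574 and 2801 CPM over stages 40 to 47, and all 9 were lower at stage 47 than at stage 40. The 8 proliferation markers had medians of 1131, 1152, 1351, 1068, 701 and 139 CPM, with all 8 lower at stage 47 than at stage 40. Between stages 45 and 44, 6 of the progenitor markers, 7 of the proliferation markers and 4 of 10 endothelial markers were lower and none was higher. The summed level of 11 neuronal markers was between 8057 and 10030 CPM in all 18 libraries, though single markers moved. Of them 6 were higher and 4 lower at stage 47 than at stage 40. At stage 42, 9 were higher and 1 lower than at stage 40, and at stage 45, 4 were higher and 3 lower than at stage 44. Of the partners and effectors, 79 were measured in the time course, and 28 were higher and 39 lower at stage 47 than at stage 40, against 40.0% and 40.8% of all genes. Of the endothelial markers, 4 were higher and 1 lower at stage 47 than at stage 40. The part of these cell types in the stage differences of the guidance genes was not tested.

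The genes lower with cyclopamine were mostly lower at the later stage too, which was also so over all genes. The table pair was normalized separately, so levels are not compared, and calls and log2 fold changes from within each table are set side by side. Of the 11 lower with cyclopamine, 9 were also lower at stage 47 than at stage 40 (81.8% of the 11 and 33.3% of the 27 lower at stage 47). Over all genes in both tables, the same overlap was 63.3% of the 1552 genes lower with cyclopamine and 15.5% of the 6359 lower at stage 47. The exceptions were sema3f, which was higher at stage 47, and nrp2, which was not called there. Of the 9, ntn3 kept its cyclopamine call in all 14 alternative analyses, robo1 in 13 and ntn5 in 12. The calls of efna5, epha3, robo3, sema6b, epha10 and ephb3 were kept in 9, 7, 5, 5, 4 and 1 of the 14. The 3 genes higher with cyclopamine comprised ntn4 and plxnc1, both higher at stage 47, and plxnd1, which was not called between the stages (-0.18 ± 0.09, edgeR adjusted p = 0.0635). Over all genes in both tables, 48.2% of the 1383 genes higher with cyclopamine were also higher at stage 47. Ntn3 and ntn1 differed here: the log2 fold changes of ntn3 were -2.01 with cyclopamine and -0.64 between stages 47 and 40, whereas those of ntn1 were -0.00 and -1.07.

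**Figure D5:**
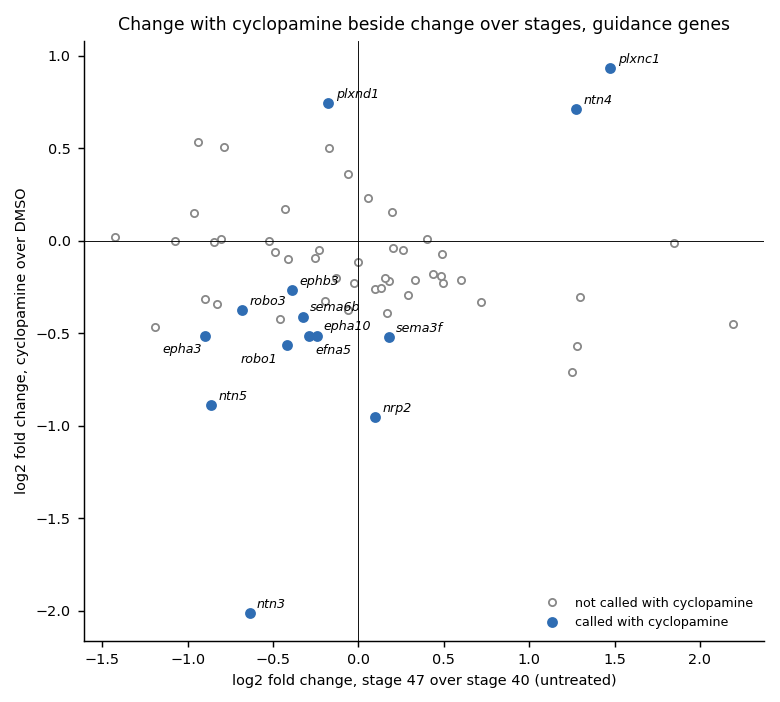
Log2 fold change with cyclopamine over DMSO (y axis) against log2 fold change of stage 47 over stage 40 in untreated brain (x axis) for the 61 guidance genes, 1 point each, with genes called with cyclopamine filled and named. Ntn3 lies at -2.01 on the y axis, nrp2 and plxnd1 lie near 0 on the x axis, and ntn4 and plxnc1 lie at the upper right.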

How the data were processed

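Polyadenylated brain RNA was made into stranded libraries, per the labels' protocols. In 2 tables, for 9 drug and 18 time course libraries, the authors gave raw counts, that is whole numbers of reads for each gene. The deposited companion tables hold log2 CPM after full-quantile normalization, as their names and values show. STAR 2.7.3 is named in the submitters' processing notes. The build, annotation, read counting and strand setting were not given in the sources used here. No coordinates are printed for that reason. Every deposited row had 3 or more libraries at 1 CPM or above, so low genes had been removed before deposit. A symbol was lacking for 3183 of 16212 and 3135 of 16049 rows, which stayed in the fits.

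Groups came from the labels, which do not link equal replicate numbers to one clutch or date. The p-values thus measure the spread between these samples, which may be technical. Per table, the counts entered edgeR 4.0.16 under R 4.3.3. It used TMM scaling, filterByExpr (0 genes removed), a mean for every group and the robust quasi-likelihood F-test, with Benjamini-Hochberg adjustment over all genes. Levels were not tested across tables. The procedure was also run on simulated counts. These had the same spread in every group, so they cannot show how it does where groups differ in spread, as the drug groups did. Alternatives were other size factors, no filter, a mean of at least 5 CPM, a replicate block, DESeq2 1.42.0, limma 3.58.1 on the deposited log2 values, the compared groups alone, and leaving out each library. The alternative with at least 5 CPM dropped genes under that mean, so guidance genes such as plxnc1 were not tested in it.

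The genes, the lists and the tests were chosen with earlier results of these data known. By rule the text names each gene called in a drug comparison. For stages 47 and 40 it names the 10 largest rises and 10 largest falls among called genes whose average log2 CPM was 1 or more, for each adjacent stage pair the 2 lowest p-values, and for any stage difference the lowest of each family. A set of familiar members is given whatever its values, of which ephb2 was not analysed here. Other members named were chosen after their values were seen. No library pair of a group held near-identical counts.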

Additional observations from a re-analysis of the deposited data

How the results depend on the processing

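Counts of called genes depended on the processing for the drugs and for adjacent stage pairs. They depended little on it for stages 47 and 40 and for any stage difference. With cyclopamine 14 genes were called, among them plxnc1, which was not tested where a mean of at least 5 CPM was required. The count was 7 with a mean of at least 5 CPM, 9 with limma on the deposited log2 values, 23 with only the groups compared in the fit, 4 with cyclopamine replicate 1 as that group's sole library (which is assumed to vary like the other groups), and 5 to 11 when 1 library was left out. With estradiol 1 gene was called, against 5 with DESeq2 and 0 to 7 when 1 library was left out. Between estradiol and cyclopamine 2 genes were called, against 4 with DESeq2, 1 with only the groups compared, 1 with cyclopamine replicate 1 alone, and 1 to 4 when 1 library was left out. Between stages 47 and 40 the alternatives gave 45 to 51 calls, against 49, with 51 when stage 42 replicate 1 was left out. Any stage difference gave 51 to 57, against 55, and the 5 adjacent pairs together gave 83 to 111, against 94. Leaving out 1 library gave 16 to 26 calls between stages 45 and 44, against 23. It gave 12 to 19 between stages 46 and 45, against 17, and 18 to 29 between stages 47 and 46, against 22. Causes were not tested. Relative log expression size factors moved the median of all genes with cyclopamine by under 0.1 on the log2 scale and left 10 calls, 3 higher and 7 lower. Correlations of same-numbered deviations from group means of 3 libraries cannot exclude that replicate numbers pair the samples. Of these correlations, 2 of 9 were over 0.1 in the drug table and 2 of 45 in the time course. Both of the drug table were between cyclopamine and DMSO, at 0.213 and 0.124 for replicates 1 and 2, with 0.0308 for replicate 3. A replicate block gave 16 calls with cyclopamine (3 higher, 13 lower), 1 with estradiol, 2 between the drugs, 49 between stages 47 and 40, 55 for any stage difference and 95 for the adjacent pairs. For single genes the tally covered selected results, not all 61 genes in every comparison. Over its 1643 gene and setting pairs, 90 calls were lost, 18 were gained and no called value changed direction. The lowest count of any of the 61 genes was 16, and precision is limited by the 3 libraries per group.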
